A study of Mus musculus with 12 samples.

Results

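The retinoid X receptor (RXR) and the histone mark H3K27ac were followed at 9 glial genes in mouse embryonic stem (ES) cells of the E14 line and in neural cells derived from those. The genes are Gfap, Aldh1l1, Glul, Slc1a2, Slc1a3, Nfia, Nfix, Olig1 and Pdgfra. They were chosen by name, and every peak whose annotated nearest gene was one of the 9 was taken, at any distance. They are 9 of 14490 genes named in the 12 lists, and they hold 92 of 76731 peaks, of which 22 are RXR peaks and 70 are H3K27ac peaks. Peaks that overlapped by at least 1 bp between lists were joined, which gave 15 distinct RXR sites and 33 distinct H3K27ac regions. RXR peaks named 7 of the 9 genes (all but Slc1a2 and Olig1), and 25.1% of all named genes had an RXR peak in any of the 8 RXR lists. H3K27ac peaks named 8 of the 9 (all but Gfap), where 96.3% of all named genes had one.

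RXR is a nuclear receptor that binds DNA mainly as a heterodimer with partners such as the retinoic acid receptors and the liver X receptors, at paired copies of a hexamer close to AGGTCA. H3K27ac marks active promoters and enhancers. In the developing brain neural progenitors make neurons first and glia later. Nfia and Nfix, transcription factors of the nuclear factor I family, take part in that switch, while Gfap, Aldh1l1, Glul, Slc1a2 and Slc1a3 mark astrocytes and Olig1 and Pdgfra mark the oligodendrocyte lineage.

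Wild-type E14 ES cells had been given 1 µM ligand for 24 h. The ligands were GW3965, an agonist of the liver X receptors, LG268, an agonist of RXR, and all-trans retinoic acid (RA), the ligand of the retinoic acid receptors. Control ES cells are labelled as such, and the protocol names dimethylsulfoxide as vehicle. Each of these 4 groups has 1 RXR library and 1 H3K27ac library. Later libraries come from a neural differentiation through embryoid bodies with 5 µM RA, with 2 RXR libraries at day 8, 2 at day 16 and none for H3K27ac. All cells come from 1 line, cultured before treatment with leukaemia inhibitory factor, and the labels do not say whether the 2 libraries of a day came from separate cultures. With 1 library a treatment there is no replicate check of a difference between ligand and control, and no test was run on it. A peak present in one list and missing in another is a difference between those libraries.

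The RXR lists held 940 peaks with GW3965, 2089 with LG268, 1970 with RA and 1089 in control, then 1154 and 2044 at day 8 and 429 and 409 at day 16. The H3K27ac lists held 17759, 12472 and 14958 peaks with GW3965, LG268 and RA and 21418 in control. Read totals are not part of the lists, and sequencing depth is therefore unknown. Within 10 kb of the transcription start site (TSS), H3K27ac was called at 7, 4 and 5 of 10 pluripotency genes with GW3965, LG268 and RA and at 5 in control, at 2, 2 and 2 of 6 neuronal genes and at 3 in control, and at 2, 0 and 2 of 4 endoderm genes and at 2 in control. The GW3965 RXR list stood apart from the other ES lists, with 16.4% of its peaks in LTR retrotransposons against 2.58% with LG268, 2.74% with RA and 2.48% in control. It holds 1 of the 15 sites, so 14 are left without it.

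RXR peaks lay at the start of Gfap and of Glul, and the bases of each peak within 250 bases before the gene's start are shown because an RXR peak met a glial promoter there. The Gfap peak runs 34 bases farther upstream, which were neither shown nor searched. The Glul peak, 313 bp wide, runs on past the gene's start. Its bases after the start, which include its centre, were also neither shown nor searched. Gfap encodes the intermediate filament protein of astrocytes, and its peak was called with RA only. Glul encodes glutamine synthetase, which turns glutamate into glutamine in astrocytes, and its peak was called in control ES cells only. The sequences are RefSeq's, build GRCm38.p6, and are written 5′ to 3′ on the gene's strand. The Gfap stretch is chr11:102897254-102897450 on the minus strand, and the Glul stretch is chr1:153899796-153899928 on the plus strand. Capitals mark each match, on either strand, to the hexamers searched, which were AGGTCA and GGGTCA, with AGTTCA and also GGTTCA.
Gfap: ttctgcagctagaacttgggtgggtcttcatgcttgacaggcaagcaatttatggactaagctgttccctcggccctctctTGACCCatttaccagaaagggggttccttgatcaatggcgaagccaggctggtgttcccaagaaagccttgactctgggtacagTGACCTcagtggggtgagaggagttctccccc
Glul: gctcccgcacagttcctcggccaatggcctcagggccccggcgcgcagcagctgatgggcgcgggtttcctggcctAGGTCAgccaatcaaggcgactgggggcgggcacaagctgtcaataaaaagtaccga
The 197 bases of Gfap, 53.3% G and C, hold 2 matches, GGGTCA and AGGTCA, both on the opposite strand, which begin 169 and 85 bases before the start. At least 1 match is present in 32.4% of 32851 promoters over the same window, and at least 2 in 6.55%. The 133 bases of Glul, 64.7% G and C, hold 1 match, AGGTCA on the gene's strand 57 bases before the start, and 22.1% of promoters hold at least 1 in that window. Neither stretch holds 2 matches in the same orientation spaced by 1, 2, 4 or 5 bases, an arrangement found in 0.384% of promoters over the Gfap window and 0.244% over the Glul window. A match is a description of the letters and not a bound site. The promoter table held 8 of the 9 genes.

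**Figure D1:**
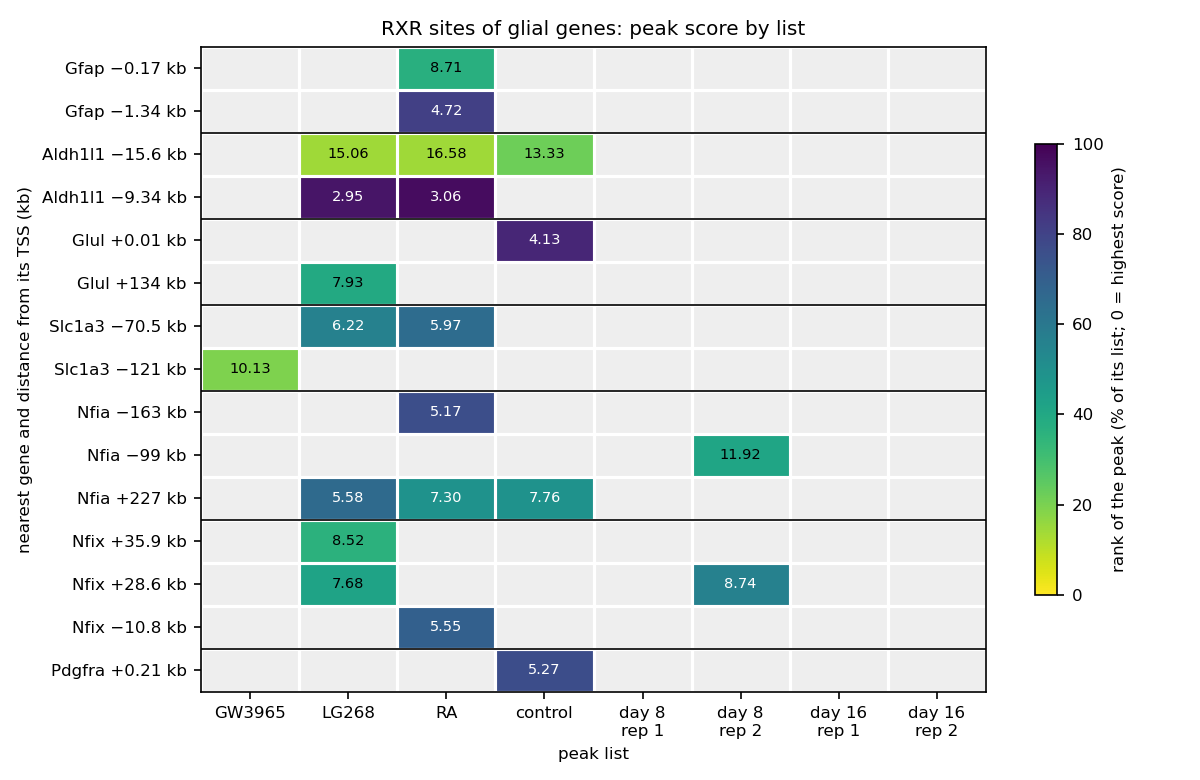
RXR sites of the glial genes, 1 row a site with its distance to the TSS in kb, 1 column a peak list, with the ligand lists left of control and days in order. Numbers are the authors' peak scores, colour is the rank of the peak as a percent of its list (0 is the highest score) and grey means that no peak was called. Most rows are filled in 1 list, the Aldh1l1 site at −15.6 kb and the Nfia site at +227 kb are filled in 3, and day 16 is empty.

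RXR peaks named 1 of the 9 genes with GW3965 (5.99% of all named genes had one), 5 with LG268 (12.4%), 5 with RA (11.9%) and 4 in control (6.89%). At day 8 the count was 0 in replicate 1 (6.31%) and 2 in replicate 2 (10.8%), and at day 16 it was 0 in both (2.33% and 2.19%). These counts take no account of the room around each gene: Nfia spans 541 kb and Olig1 2.17 kb, and a nearest-gene rule gives long, isolated genes more peaks. Of the 15 sites, 10 were called in 1 of the 8 lists, against 56.7% of all 5014 RXR regions. None was called in 4 or more lists, which 13.5% of all regions were. Within 1 kb of a TSS lay 3 sites, 8 lay 1 to 100 kb away and 4 lay farther.

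Aldh1l1, which encodes a folate enzyme used as a marker of astrocytes, had the highest-ranked RXR site of the 9 genes in the LG268, RA and control lists. The site lay in intergenic sequence at −15.6 kb from the TSS. It scored 15.06 with LG268 (rank 296 of 2089, chr6:90535022-90535367), 16.58 with RA (rank 277 of 1970, chr6:90535078-90535398) and 13.33 in control (rank 239 of 1089, chr6:90535092-90535354), and it was not called with GW3965 or on either day. It ranked 14.2% and 14.1% down the LG268 and RA lists, and 21.9% down the control list. A further site, at −9.34 kb, was called with LG268 (2.95, rank 1973) and RA (3.06, rank 1905) and not in control. Both of its peaks were as narrow as the narrowest of their lists, 183 bp with LG268 and 173 bp with RA, so they stand at the edge of what was called.

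Gfap had 2 RXR sites, both with RA alone. The one at the promoter (chr11:102897254-102897484, centred 169 bp upstream of the TSS) scored 8.71 and ranked 724 of 1970. The other, 1342 bp upstream (chr11:102898437-102898648), scored 4.72 and ranked 1598. No H3K27ac peak of any treatment was assigned to Gfap. The nearest H3K27ac peaks to the promoter site began 15820 to 15973 bp away on one side, across the 4 lists, and 26948 to 27041 bp away on the other.

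At Glul, the promoter site of control ES cells (chr1:153899796-153900108, centred 7 bp downstream of the TSS) scored 4.13 and ranked 974 of 1089, in the lowest part of its list. A site 134 kb downstream (chr1:154034154-154034509) was called with LG268 alone, with a score of 7.93 and rank 820 of 2089. The glutamate transporters of astrocytes differed: Slc1a2 (GLT-1) had no RXR peak, and Slc1a3 (GLAST) had 2 upstream sites. The Slc1a3 site at −70.5 kb scored 6.22 with LG268 (rank 1173, chr15:8781172-8781530) and 5.97 with RA (rank 1276, chr15:8781132-8781362). The Slc1a3 site at −121 kb was the single RXR peak of the 9 genes with GW3965 (10.13, rank 183 of 940, chr15:8832006-8832248), and it lay in an RLTR9D element, an LTR of the ERVK class.

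The nuclear factor I genes held 6 of the 15 sites. In intron 4 of 9 of Nfia, 227 kb downstream of the TSS, a site scored 5.58 with LG268 (rank 1369), 7.30 with RA (rank 965) and 7.76 in control (rank 536). The control peak covered chr4:98004151-98004540. Upstream of Nfia, a site at −163 kb was called with RA alone (5.17, rank 1494), and one at −99 kb in day 8 replicate 2 alone (11.92, rank 845 of 2044). Both Nfix sites of intron 2 of 8 were called with LG268 and not in control, at +35.9 kb (8.52, rank 743) and at +28.6 kb (7.68, rank 879). The site at +28.6 kb, chr8:84745616-84745832 with LG268, was also called in day 8 replicate 2 (8.74, rank 1145) and was the single site of the 9 genes shared between an ES list and a day. A site 10.8 kb upstream of Nfix was called with RA alone (5.55, rank 1365) in a GC-rich low-complexity repeat.

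Of the oligodendrocyte genes, Olig1, a basic helix-loop-helix factor, had no RXR peak. Pdgfra, the receptor for platelet-derived growth factor found on oligodendrocyte precursors, had 1 in control alone, in a CpG island in intron 1 of 22 (chr5:75156296-75156456). It scored 5.27, ranked 830 of 1089 and at 161 bp was as narrow as the narrowest control peak. Distances here are to the nearest annotated start, which for Pdgfra, Nfia, Nfix and Slc1a2 is not always the outermost one.

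Set against control, the 3 ligands share the same control list and are therefore not independent. Shares in parentheses are over all regions of that pair. With GW3965, 1 RXR site was called with ligand alone (38.9%), 0 in both (13.7%) and 4 in control alone (47.3%). With LG268, 5 were called with ligand alone (54.6%), 2 in both (32.8%) and 2 in control alone (12.6%). With RA, 6 were called with ligand alone (52.3%), 2 in both (34.3%) and 2 in control alone (13.4%). The 2 sites kept with both LG268 and RA were Aldh1l1 at −15.6 kb and Nfia at +227 kb, and the 2 called in control alone were the TSS sites of Glul and Pdgfra. LG268 and RA had 4 sites in common, the other two being Aldh1l1 at −9.34 kb and Slc1a3 at −70.5 kb. For LG268 and RA the ligand-alone shares of members lay near those of all regions. With each ES list kept to its 940 highest peaks, the length of the GW3965 list, 1 site was called with GW3965 alone and 3 in control alone, 3 with LG268 alone and 2 in control alone, and 1 with RA alone and 2 in control alone. Nfia at +227 kb was among those in control alone for LG268 and RA, because its ranks there, 1369 and 965, fell below the cut. Shares over all regions were not computed at that length, so no direction is read from these counts.

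Both day 8 sites came from replicate 2, and neither had a peak in replicate 1. Replicate 1 was the shorter list: 85.9% of its peaks overlapped replicate 2, while 48.0% of the replicate 2 peaks overlapped replicate 1. Among the replicate 2 peaks that ranked 845 or lower, as both of these peaks do, 24.1% were also in replicate 1. The calls at Nfia and Nfix therefore rest on 1 library, and 0 sites were called in both day 8 libraries. Among 30 other glial genes, RXR peaks were assigned to 3 with GW3965 (5.99% of all named genes had one), 5 with LG268 (12.4%), 5 with RA (11.9%) and 2 in control (6.89%). Day 8 replicate 1 had 4 (6.31%), replicate 2 had 5 (10.8%), and both libraries of day 16 had 0 (2.33% and 2.19%). With lists this small, these counts are not read as different from those shares. Of the 30 genes, which were chosen with earlier results known, 4 had the same site in both day 8 replicates. The share of all named genes with such a site was not computed, so this count has no background to be read against. Sox9, a factor of glial specification, had sites at +103 kb (12.26 in replicate 1 and 29.44 in replicate 2) and at +208 kb (9.61 and 28.06). Id3, a target of BMP signalling, had one at its promoter (11.35 and 13.59), Sparcl1, an astrocyte matrix protein, one at −14.5 kb (7.12 and 10.30), and Hes1, a repressor downstream of Notch, one at +64.2 kb (6.33 and 4.47). Some of these sites were also called in ES cells. Sox9 at +208 kb was called with LG268 (7.19) and in control (2.9), and Hes1 at +64.2 kb with LG268 (5.8) and RA (4.25).

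**Figure D2:**
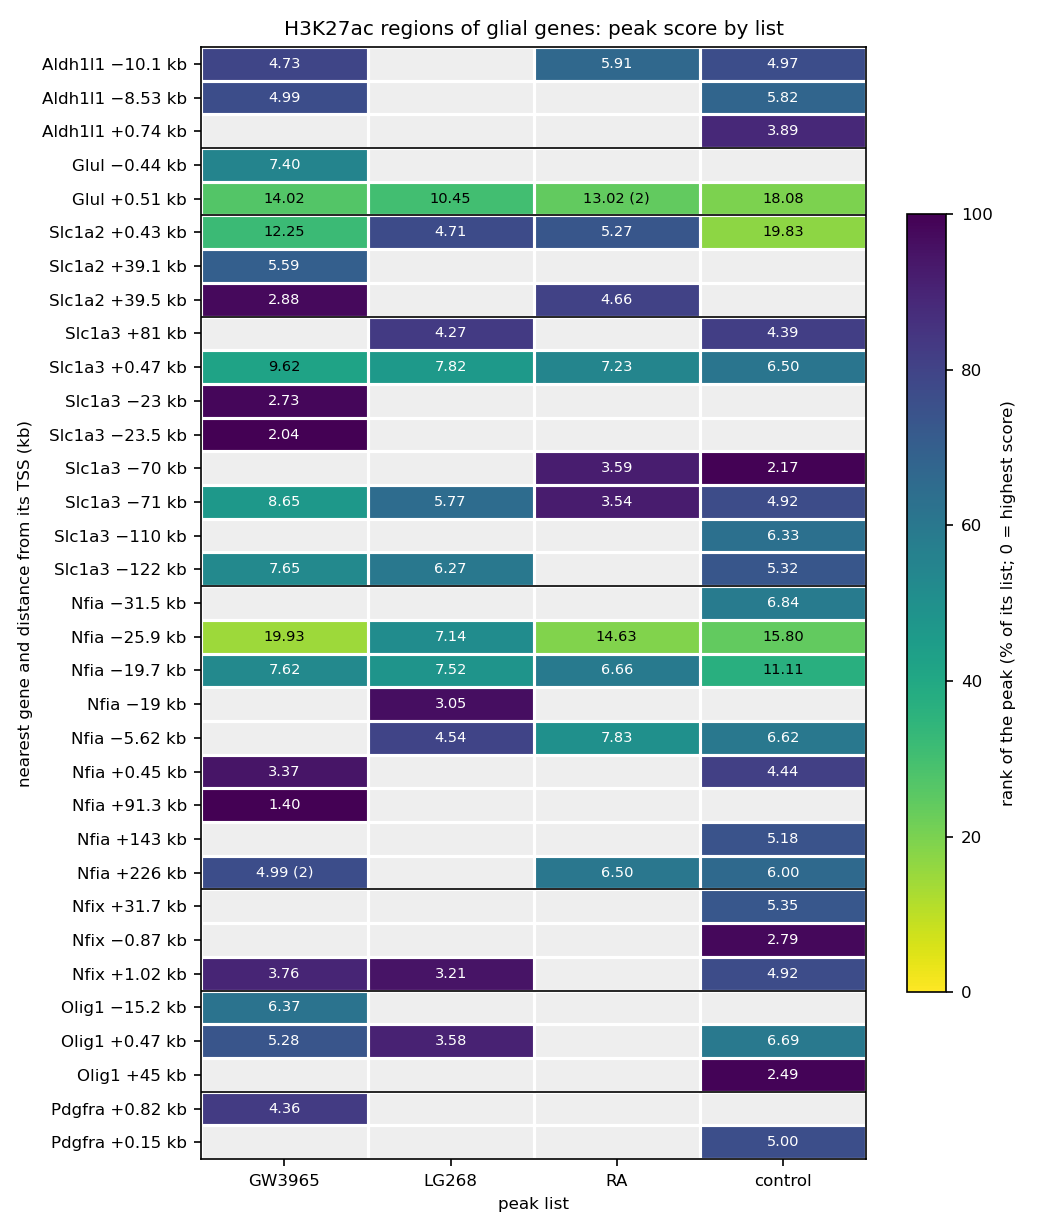
H3K27ac regions of the glial genes, 1 row a region with its distance to the TSS in kb, 1 column a peak list, with control at the right. Numbers are the authors' peak scores, a 2 in parentheses marks a region with 2 peaks in that list (the higher score is shown), colour is the rank as a percent of the list and grey means that no peak was called. Of the 33 rows, 6 are filled in all 4 columns (36.2% of all regions are) and 16 in 1 column (34.9%). Of these 16, 7 are GW3965 (8.89% of all regions) and 8 control (19.0%). Merging peaks within 1 kb leaves 12 regions in 1 treatment only.

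H3K27ac was called at 8 of the 9 genes with GW3965 (80.7% of all named genes), 6 with LG268 (65.3%), 5 with RA (72.8%) and 8 in control (88.4%). The peaks numbered 22 with GW3965, 12 with LG268, 12 with RA and 24 in control. Of the 33 regions, 6 were called in all 4 lists (36.2% of all 25396 regions were), and 16 in 1 list alone (34.9%). Those 16 were 7 regions with GW3965 (8.89% of all regions were called there alone), 1 with LG268 (2.44%), 0 with RA (4.54%) and 8 in control (19.0%). Some of the 16 lay close beside another region, as at Slc1a3 −23.0 and −23.5 kb with GW3965. With peaks merged within 1 kb, 12 regions were called in 1 treatment only. Shares over all regions were not computed with that merge, so the GW3965 count is not read as an excess. Within 1 kb of a TSS, 3 of 10 regions were called in all 4 lists (54.5% of all regions there were) and 5 in 1 (18.8%). Farther away, 3 of 23 were called in all 4 (12.0%) and 11 in 1 (56.2%).

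The glutamate genes carried 4 of the 6 regions shared by all 4 lists. At Glul, the region in the CpG island of intron 1 of 6 scored 14.02 with GW3965 (rank 4724 of 17759), 10.45 with LG268 (rank 3791 of 12472), 13.02 and 10.00 in 2 peaks with RA (ranks 3608 and 5472 of 14958) and 18.08 in control (rank 4209 of 21418, chr1:153899934-153901077). A further Glul region at −0.44 kb was called with GW3965 alone (7.40). At Slc1a2, the first exon scored 12.25 with GW3965 (rank 5647), 4.71 with LG268 (rank 9624), 5.27 with RA (rank 10985) and 19.83 in control (rank 3620). It stood 31.8%, 77.2% and 73.4% down the GW3965, LG268 and RA lists, and 16.9% down the control list. With 1 library each and lists of different length, these positions cannot show whether the mark changed. Intron 5 of 10 of Slc1a2 had a region at +39.1 kb of a start inside the gene, not of the first exon above, with GW3965 alone (5.59) and one at +39.5 kb with GW3965 (2.88) and RA (4.66).

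At the Slc1a3 start, the region scored 9.62 with GW3965, 7.82 with LG268, 7.23 with RA and 6.50 in control. These peaks stood 42.1%, 45.9% and 54.4% down the GW3965, LG268 and RA lists and 61.0% down the control list. Since the lists differ in length, the positions cannot show whether the mark changed. The Slc1a3 region at −71 kb, beside the RXR site at −70.5 kb, scored 8.65 with GW3965, 5.77 with LG268, 3.54 with RA and 4.92 in control. Regions at −23.0 and −23.5 kb were called with GW3965 alone (2.73 and 2.04, ranks 17428 and 17725 of 17759), and one at −110 kb in control alone (6.33).

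Nfia had the most H3K27ac regions, 9. In the control list it had 7 peaks, and 0.617% of the 12812 genes named there had at least as many. Slc1a3 had 6 there, and 1.25% of genes had at least as many. As with RXR, these counts take no account of the room around each gene: Nfia spans 541 kb and Slc1a3 76.7 kb. The Nfia intron 1 region at −25.9 kb, in a CpG island, scored 19.93 with GW3965 (rank 2626), 7.14 with LG268 (rank 6393), 14.63 with RA (rank 2856) and 15.80 in control (rank 5153). The one at −19.7 kb scored 7.62, 7.52 and 6.66 with GW3965, LG268 and RA and 11.11 in control. The region at +226 kb, next to the RXR site of intron 4, scored 4.94 and 4.99 in 2 peaks with GW3965, 6.50 with RA and 6.0 in control, with no peak with LG268. Regions of Nfia in 1 list alone were those at −19.0 kb with LG268 (3.05), at +91.3 kb with GW3965 (1.40, the last of its list), and at −31.5 and +143 kb in control (6.84 and 5.18).

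The remaining genes had weak or single-list regions. Near the Nfix start, the region at +1.02 kb scored 3.76 with GW3965 and 3.21 with LG268 and 4.92 in control, and 2 more were called in control alone, at +31.7 kb (5.35) and −0.87 kb (2.79). Olig1 had a region over its single exon, scoring 5.28 with GW3965, 3.58 with LG268 and 6.69 in control, with none with RA. Olig1 also had a GW3965 peak at −15.2 kb (6.37) in an LTR element, and a control peak at +45 kb (2.49). Pdgfra had 1 region with GW3965 alone (4.36) and another in control alone (5.00), at different annotated starts. Aldh1l1 had regions on either side of its weak RXR site, at −10.1 kb (4.73 with GW3965, 5.91 with RA and 4.97 in control) and −8.53 kb (4.99 with GW3965 and 5.82 in control), and a control peak at +0.74 kb (3.89).

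Set against control, GW3965 had 8 regions with ligand alone (12.6% of all regions of that pair). It had 11 in control alone (28.0%) and 13 in both (59.5%). LG268 had 1 with ligand alone (4.89%), at Nfia, 13 in control alone (46.3%) and 11 in both (48.8%). RA had 1 with ligand alone (7.86%), at Slc1a2, 14 in control alone (37.3%) and 10 in both (54.9%). The control regions missing with a ligand were mostly low in the control list. Of the 24 control peaks, 4 scored at or above the median of the list, and all 4 were called with each ligand, where 93.1% of all such control peaks were called with GW3965, 81.5% with LG268 and 88.3% with RA. Of the 20 below the median, 9 were called with GW3965 (44.4% of all), 7 with LG268 (22.1%) and 6 with RA (32.1%). When each list was kept to its 12472 highest peaks, the length of the LG268 list, 0 regions were in control alone for any ligand, and 6, 8 and 5 were called with GW3965, LG268 and RA alone. That cut kept 4 of the 24 control peaks, and these were the 4 called with each ligand. The 0 therefore followed from which control peaks were kept. Shares over all regions were not computed at equal length, so no direction is read from these counts. Whether the difference in H3K27ac calls reflects depth was not tested.

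**Figure D3:**
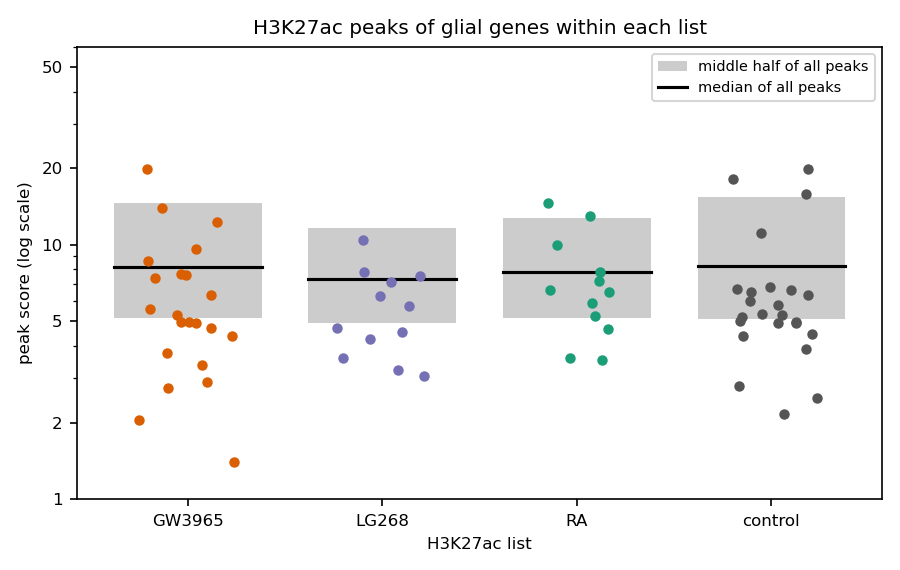
H3K27ac peak scores of the glial genes, 1 point a peak, by list (log scale), with control at the right. The grey box spans the lower to the upper quartile of all peaks in the list and the black line is their median; 5 of 22, 3 of 12 and 4 of 12 points reach the line with GW3965, LG268 and RA, and 4 of 24 in control.

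The median score of the member peaks was 5.14 with GW3965, 5.24 with LG268, 6.58 with RA and 5.34 in control, against 8.17, 7.32, 7.81 and 8.22 over all peaks of those lists. In the RXR lists 1 of 1, 4 of 7 and 3 of 8 member peaks reached the list's median with GW3965, LG268 and RA, and 2 of 4 in control. The plot of H3K27ac scores by list shows that the peaks of glial genes lay mostly below the median in each of the 4 lists. Of the 33 member regions, 23 lay farther than 1 kb from a TSS. Among all peaks, 67.1% with GW3965, 77.6% with LG268, 74.4% with RA and 63.5% in control lay within 1 kb. Medians matched for distance were not computed, so the low scores are not read as a trait of glial genes.

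Of the 20 RXR peaks in ES cells, where a site called in several lists counts once per list, 4 lay under H3K27ac of the same treatment. Overlap was found for 0 of 1 with GW3965 (18.2% of all RXR peaks), 1 of 7 with LG268 (24.5%), 1 of 8 with RA (27.8%) and 2 of 4 in control (32.0%). A further 1 with GW3965 (14.3%), 0 with LG268 (11.7%), 2 with RA (13.2%) and 1 in control (15.7%) had an H3K27ac peak within 1 kb but not over it. The remaining 12 had none within 1 kb. The overlaps were those at Slc1a3 −70.5 kb with LG268 (10 bp), at Nfia +227 kb with RA (68 bp), and at Glul (175 bp) and Pdgfra (143 bp) in control.

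**Figure D4:**
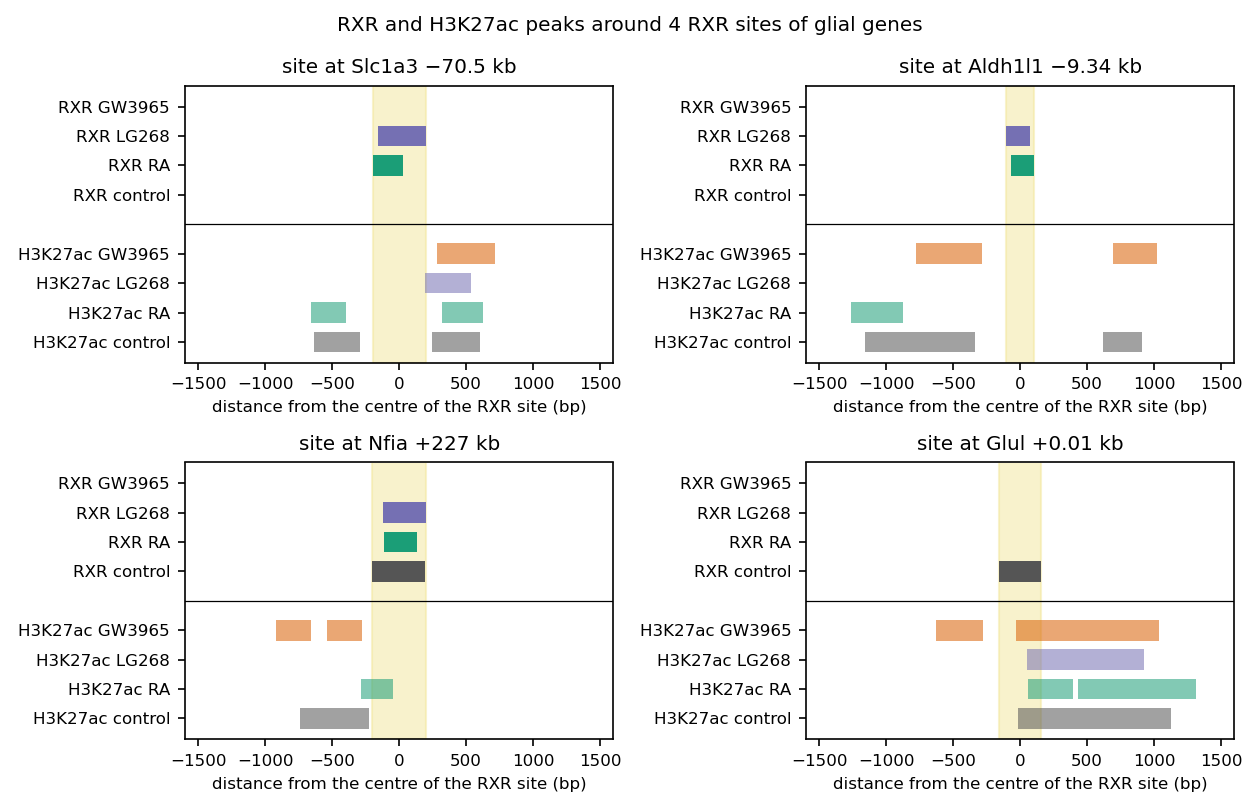
RXR peaks (dark bars) and H3K27ac peaks (light bars) around 4 RXR sites, by treatment with control at the bottom of each group, in bp from the centre of the site along the chromosome. The shaded band is the RXR site. H3K27ac bars stand on both sides of the band at Slc1a3 −70.5 kb with RA and in control, and at Aldh1l1 −9.34 kb with GW3965 and in control. The Slc1a3 bars rank 91.9% and 92.4% down the RA list and 99.6% and 76.6% down the control list.

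Gaps were measured from the RXR peak of the same treatment or, where it had none, from the joined site. At Slc1a3 −70.5 kb, H3K27ac stood on both sides with RA (gaps of 197 and 288 bp) and in control (97 and 47 bp), where RXR itself was not called. With GW3965 it stood on one side (83 bp). In the same order, the RA peaks scored 3.59 and 3.54, 91.9% and 92.4% down the list. The control peaks scored 2.17 and 4.92, 99.6% and 76.6% down the list. The pattern on both sides of this site thus rests on low-ranked peaks. At Aldh1l1 −9.34 kb, H3K27ac stood on both sides with GW3965 (178 and 588 bp) and in control (231 and 509 bp), both of which lack the RXR peak. With RA it stood on one side (808 bp). The nearest H3K27ac peak to that site with LG268 was 78274 bp away. Beside Nfia +227 kb the gap was 77 bp with GW3965 and 26 bp in control. At the Glul start, H3K27ac covered 190 bp of the RXR site with GW3965, 107 bp with LG268, 97 bp with RA and 175 bp in control, while RXR was called in control alone. The Slc1a3 site at −121 kb had H3K27ac beside it in 3 lists, with gaps of 122 bp with GW3965, 85 bp with LG268 and 108 bp in control, and the nearest with RA was 50051 bp away.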

How the data were processed

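Peaks of 12 ChIP-seq libraries were analysed. Per the submitters' processing notes, BWA 0.6.0, MACS2 2.0.10 and HOMER 4.2 were used, with the builds mm9 and mm10 listed without a role. Annotation was against mm10, per the file headers, and the authors deposited 1 list per library with each peak's score, nearest gene and distance to the TSS. The scale of the deposited score between libraries is not stated, so scores were ranked within a list. Read totals were not used here, so depth is unknown.

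Peaks were selected by gene name and joined where they overlapped by at least 1 bp, with Python 3.11.15, pandas 2.3.3 and numpy 2.4.6 (figures with matplotlib 3.10.9). The overlap step was tested on simulated data. All peaks of each list served as background. No statistical test was run. The 9 genes and the 30 other glial genes were chosen with earlier results of these data known. All members with a peak are named. Alternatives were a stricter overlap, a 1 kb merge gap, distance limits, peaks at or above the list median and lists cut to equal length. Others left out RXR repeat peaks or each day library. Repeat peaks here were those in simple, satellite, low-complexity or ribosomal RNA repeats or on the mitochondrial chromosome. Peaks in LTR retrotransposons were kept.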

Additional observations from a re-analysis of the deposited data

How the results depend on the processing

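Counts of sites were recomputed under 14 alternatives, and 91 of 140 values stayed within 1.5 times. The 91 include the counts for day 16 and for both day 8 replicates, which were 0 in every setting. Alternatives that only remove peaks could not have raised a count of 0. Those values therefore add to the 91 without showing stability. No paired analysis was possible because the results are counts of sites with no test. The count without the GW3965 list and H3K27ac within 1 kb were alternatives chosen after seeing the data.

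Keeping peaks at or above the median score of their list left, for H3K27ac, 2 regions with GW3965 alone and 1 in control alone of that pair. In control alone it left 2 for the LG268 pair and 2 for the RA pair, and 2 regions in 1 treatment only. For RXR it left 2 sites in control alone beside GW3965, 3 with LG268 alone and 1 in its control alone, 1 with RA alone and 0 in its control alone, 1 site at day 8, 8 distinct sites and 0 under H3K27ac.

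Keeping peaks within 10 kb of the TSS left, for H3K27ac, 2 regions with GW3965 alone and 4 in control alone, 0 with LG268 alone and 5 in control alone, 0 with RA alone and 7 in control alone, and 5 in 1 treatment only. For RXR it left 0 sites with GW3965 alone and 2 in control alone, 1 with LG268 alone, 3 with RA alone, 0 at day 8, 5 distinct sites and 2 under H3K27ac.

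Taking any peak within 50 kb of a member's TSS gave 7 H3K27ac regions in control alone beside GW3965, 2 with LG268 alone and 2 with RA alone. It gave 0 RXR sites with GW3965 alone, 1 at day 8 and 2 under H3K27ac. Within 100 kb the count of RXR sites with GW3965 alone was 0. A reciprocal overlap of 50% gave 3 H3K27ac regions with LG268 alone, 4 with RA alone and 1 RXR site under H3K27ac.

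ES lists of equal length gave 0 H3K27ac regions in control alone for each ligand, 8 with LG268 alone, 5 with RA alone and 10 in 1 treatment only. They gave 3 RXR sites with LG268 alone, 1 with RA alone, 9 distinct sites and 0 under H3K27ac. With H3K27ac within 1 kb, 8 RXR peaks counted in place of 4. Leaving out each day library in turn gave 0 to 2 sites at day 8, the 0 without replicate 2, and 14 to 15 distinct sites. The cause of these shifts was not tested.

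Depth is unknown, each ES treatment has 1 library, and 16 of the 70 H3K27ac member peaks reach the median score of their list. A missing peak therefore does not show that RXR or H3K27ac was absent, and the nearest gene need not be the gene acted on.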
